A study of Mus musculus with 30 samples.

Results

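Transcripts of 5 genes of olfactory sensory neurons, Gnal, Adcy3, Cnga2, Ano2 and Omp, were counted through 30 mice. They are the 5 rows of the count table that are neither odorant receptor (OR) genes nor spiked controls, out of 569 genes in all, of which 564 are OR genes. Every lane was loaded with 1 μg of total RNA extracted from the whole olfactory mucosa of a single mouse aged 21 days. RNA molecules were counted with NanoString probes, pairs of short oligos that carry a colour barcode and bind a transcript without amplification. Each group had 6 mice. The wild-type mice on cartridge MK38 were of the strain 129SvEvTac, and the ΔOlfr7Δ mice were homozygous for a deletion of the Olfr7 cluster of OR genes and of inbred 129SvEv background, on the same cartridge. The ΔHxΔP mice were homozygous for both ΔH and ΔP (Berry), deletions of the H and P elements that regulate nearby OR genes, and ran on cartridge MK29 beside wild-type mice of their companion strain. The fifth group, on cartridge MK37, held wild-type mice of the companion strain of ΔH. The ΔHxΔP mice and both of these wild-type groups had a mixed C57BL/6J x 129SvEv background. Females numbered 4 of the 129SvEvTac mice, 2 of the ΔOlfr7Δ mice, 3 of the MK29 wild-type mice, 1 of the ΔHxΔP mice and 4 of the MK37 wild-type mice.

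An odorant that binds its receptor on the cilia of an olfactory sensory neuron starts a chain of signals in which 4 of these genes take part. Gnal encodes the olfactory G protein alpha subunit, which passes the signal from the receptor to Adcy3, the adenylyl cyclase that makes cyclic AMP. Cyclic AMP opens the channel of which Cnga2 is a main subunit, and the calcium that enters opens Ano2, a chloride channel that adds to the current. Omp, the olfactory marker protein, is a cytoplasmic protein known as the standard marker of mature olfactory sensory neurons. The study asked how OR gene expression differs between mutant and wild-type mice and used the 5 genes as reference genes, so here their counts were scaled on the positive controls alone, which are RNA molecules added in known amounts. In bulk RNA of the whole mucosa, fewer neurons and less RNA per neuron cannot be told apart, and markers of other cell types were not analysed here.

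The values rest on 1 probe pair per gene, and the sequences that the pairs bind are shown because every count below is a count of these stretches. They were derived from the deposited oligos, the stretch bound by the capture oligo in lower case and that bound by the reporter oligo in capitals. For Adcy3 and Ano2 the whole stretch is given, 100 and 92 bases long, and for Cnga2 and Omp 30 bases around the point where the oligos meet.
Adcy3: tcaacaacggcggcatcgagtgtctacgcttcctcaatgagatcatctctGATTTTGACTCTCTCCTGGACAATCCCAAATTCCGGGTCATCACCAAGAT
Ano2: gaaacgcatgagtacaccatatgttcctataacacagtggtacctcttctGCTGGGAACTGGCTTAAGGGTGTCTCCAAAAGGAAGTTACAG
Cnga2: tggcttcctgggctgGTATCAGACAACGTA
Omp: tatggatgtgggcctGAGGGCTAGTCCTGG
The share of G and C was 48% in the target of Adcy3, 45.7% in that of Ano2, 51% in that of Cnga2, 44% in that of Gnal and 42% in that of Omp. Among the 564 OR probes it ran from 35% to 56.8% with a median of 46%, so all 5 lie inside the range of the OR probes. The order of the oligos was read from the OR probes. Of these, 561 of 564 keep an open reading frame with the capture stretch first and 426 with the reporter stretch first. The joined targets of Cnga2 and Omp keep 0 open frames in this order, so for them it rests on the OR probes alone.

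Of these genes 3 were counted above the top of the calibrated range. Adcy3, Cnga2 and Omp exceeded the highest positive control in 30 of 30 lanes, with medians of 2.78, 3.41 and 3.37 times that control. Gnal, at a median of 0.838 times the control, and Ano2, at 0.213 times, stayed below it in every lane. In every lane Cnga2 and Omp took ranks 1 and 2 among the 569 genes of the count table, Adcy3 rank 3 and Gnal rank 4. Ano2 lay among the OR genes with the highest counts, at ranks 6 to 13. The highest OR gene was Olfr309 with a median scaled count of 10970. The 5 genes together took from 27.3% to 32.4% of the counts of these 569 genes. Total counts of the 569 genes per lane ran from 870698 to 1456020. These ranks are of counts. Since probes differ in efficiency, they do not order the genes by their RNA, and the comparisons below are between lanes.

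Among mice of the same group the 5 genes moved together. The spread within groups, pooled over the 5 groups, was an SD of 0.12 for Omp, 0.13 each for Adcy3, Cnga2 and Gnal, and 0.14 for Ano2 on the log2 scale. OR genes had a median SD of 0.18, and from 4.92% (beside Omp) to 15.1% (beside Ano2) of 549 OR genes varied less than a given member. Divided by the geometric mean of the other 4 genes in the same lane, the SD was 0.034 for Omp, 0.036 for Gnal, 0.041 for Adcy3, 0.064 for Cnga2 and 0.077 for Ano2. Such a ratio is free of the scale factor. Counting error was far smaller for each gene, between 0.0043 for Cnga2 and 0.018 for Ano2, while the scale itself, the mean of 6 positive controls, carried a counting error with a median of 0.037. The closest pair was Cnga2 and Omp, whose ratio had an SD of 0.039 within groups, and the widest was Ano2 and Cnga2, with 0.11. Over the 30 mice, deviations from the group means correlated at r = 0.96 for Cnga2 and Omp and at r = 0.68 for Ano2 and Cnga2. All genes of a lane share its scale factor and its RNA input, so these correlations are descriptions.

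**Figure D1:**
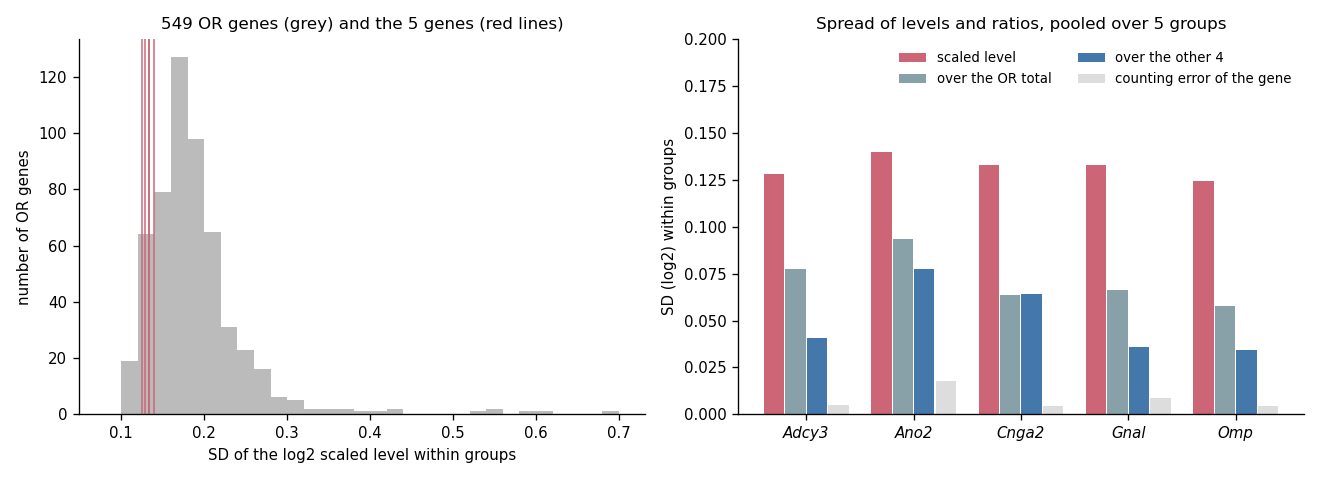
Left, number of OR genes by the SD of their log2 scaled level within groups, with the 5 genes as red lines between 0.12 and 0.14. Right, for each of the 5 genes, the SD (log2) within groups of the scaled level, of the ratio to the OR total, of the ratio to the other 4 genes and of counting alone. The ratio to the other 4 has the smaller SD than the level for all 5 genes.

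In ΔOlfr7Δ mice, Ano2 and Adcy3 were higher than in 129SvEvTac mice when scaled on the positive controls. Neither was called when scaled on the OR genes, and Cnga2 and Omp were lower relative to the receptors. Scaled counts of Ano2 ran from 5209 over a median of 5910 to 6524 in the 129SvEvTac mice and from 5848 over 7479 to 7924 in the ΔOlfr7Δ mice. The ranges overlap through 1 ΔOlfr7Δ mouse, and the other 5 lay above every wild-type mouse. The log2 difference of Ano2 was 0.31 (SE 0.089, adjusted p = 0.00636 with limma), and 0.035 (adjusted p = 0.622) under TMM, a scaling on the trimmed mean of the OR genes. Adcy3 ran from 81716 over 89979 to 100669 in the wild-type mice and from 84508 over 106704 to 120743 in the ΔOlfr7Δ mice, again with 5 of 6 above every wild-type mouse. Its log2 difference was 0.21 (SE 0.087, adjusted p = 0.0429 with limma), which turned to -0.060 under TMM. It was not called with sex as a covariate (0.18, adjusted p = 0.111), with the background subtracted (adjusted p = 0.0612) or without the mean-variance trend (adjusted p = 0.0561). The call of Adcy3 held when wild-type replicate 5 or 6 or ΔOlfr7Δ replicate 4 was left out and was lost without any of the other 9 mice, and that of Ano2 held in all 12 cases. Of the 5 genes 2 were thus called, both higher, where 58.2% of the 560 genes tested were called and 50.9% were called higher. The same mouse, replicate 4, was the lowest of the ΔOlfr7Δ mice in all 5 genes.

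The members that did not pass in this comparison had log2 differences above 0 with this scale and below 0 under TMM (Gnal -0.099, Omp -0.15, Cnga2 -0.18), where Omp and Cnga2 were called lower. Gnal had a median of 25978 in the 129SvEvTac mice and 29642 in the ΔOlfr7Δ mice, with a log2 difference of 0.17 (SE 0.087, adjusted p = 0.0916 with limma). Every ΔOlfr7Δ mouse but replicate 4 lay above all wild-type mice in Gnal too. The log2 difference of Omp was 0.12 (SE 0.088, adjusted p = 0.232 with limma), from a median of 107525 to 118269. That of Cnga2 was 0.087 (SE 0.088, adjusted p = 0.384 with limma), from 109456 to 118468. The median log2 difference over the 5 genes was 0.17, against 0.24 over the 555 OR genes tested. The mean of the positive controls was higher in ΔOlfr7Δ lanes than in wild-type lanes (median 1391 against 1325 raw counts), and on MK38 lanes 1 to 6 held the wild-type mice and lanes 7 to 12 the mutants, so genotype and place on the cartridge cannot be told apart.

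**Figure D2:**
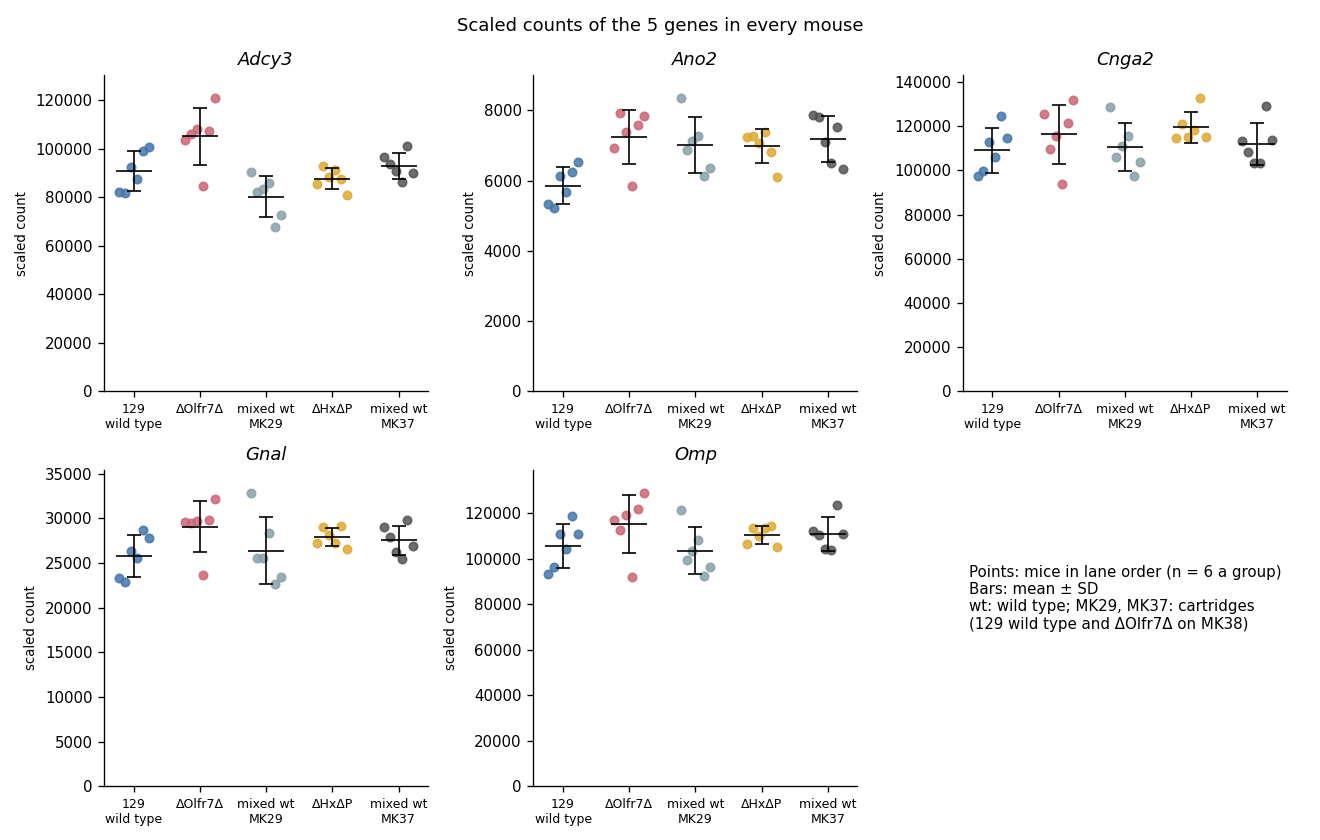
Scaled counts of each gene in every mouse by group, with the mean and SD as bars, n = 6 a group. The ΔOlfr7Δ points of Ano2, Adcy3 and Gnal sit above the 129SvEvTac points except for 1 mouse in each panel. Under TMM their log2 differences were 0.035, -0.060 and -0.099, none of them called. The groups of Cnga2 and Omp overlap through more mice.

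Ratios within a lane, which need no scaling, also differed between these groups. Ano2 over the geometric mean of the other 4 genes ran from 0.0777 over 0.0815 to 0.0845 in the 129SvEvTac mice and from 0.0847 over 0.0907 to 0.101 in the ΔOlfr7Δ mice. No wild-type value reached the lowest mutant value, and the ratio was 1.12-fold higher (adjusted p = 0.0108, exact permutation test). Cnga2 over the other 4 was 0.923-fold (adjusted p = 0.0279) and Omp 0.951-fold (adjusted p = 0.0279) the wild-type value by the same exact permutation test, though the call of Cnga2 was lost without wild-type replicate 2 or 5. Adcy3 at 1.03-fold (adjusted p = 0.121) and Gnal at 0.994-fold (adjusted p = 0.498) did not pass this exact permutation test. With 6 mice against 6, the smallest p it allows is 0.00216, and p-values were adjusted over 20 such tests. The 5 ratios are not independent, since a gene that moves also shifts the mean against which the others are read. Of the 10 pairs, 7 passed (adjusted over 40 pair tests), of which Adcy3 over Omp and Cnga2 over Gnal were each lost when any of several single mice was left out (adjusted p up to 0.0638 and 0.0825, exact permutation test). Ano2 over Gnal, 1.10-fold higher, and Ano2 over Omp, 1.14-fold higher, did not overlap between the groups (both adjusted p = 0.00866, exact permutation test).

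Against the receptors, 3 of the 5 genes were lower in ΔOlfr7Δ mice. The OR total was taken as the summed counts of 465 OR genes outside the clusters that the mutations touch. Cnga2 amounted to 16.7%, 17.3% and 18.4% of the OR total (lowest, median and highest) in the 129SvEvTac mice and to 14.1%, 15.3% and 16.1% in the ΔOlfr7Δ mice, with no overlap. The ratio was 0.877-fold (adjusted p = 0.00541, exact permutation test). Omp, from a median of 16.8% to 14.9%, was 0.898-fold (adjusted p = 0.00541, exact permutation test), and its groups did not overlap either. Gnal was 0.930-fold (adjusted p = 0.0289), a call that was lost when the clusters were counted in the OR total (adjusted p = 0.178). Adcy3 stood at 0.956-fold (adjusted p = 0.183, exact permutation test) and Ano2 at 1.02-fold (adjusted p = 0.573). The OR total itself, scaled on the positive controls, had a median of 637636 counts in the wild-type mice and of 781310 in the ΔOlfr7Δ mice.

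**Figure D3:**
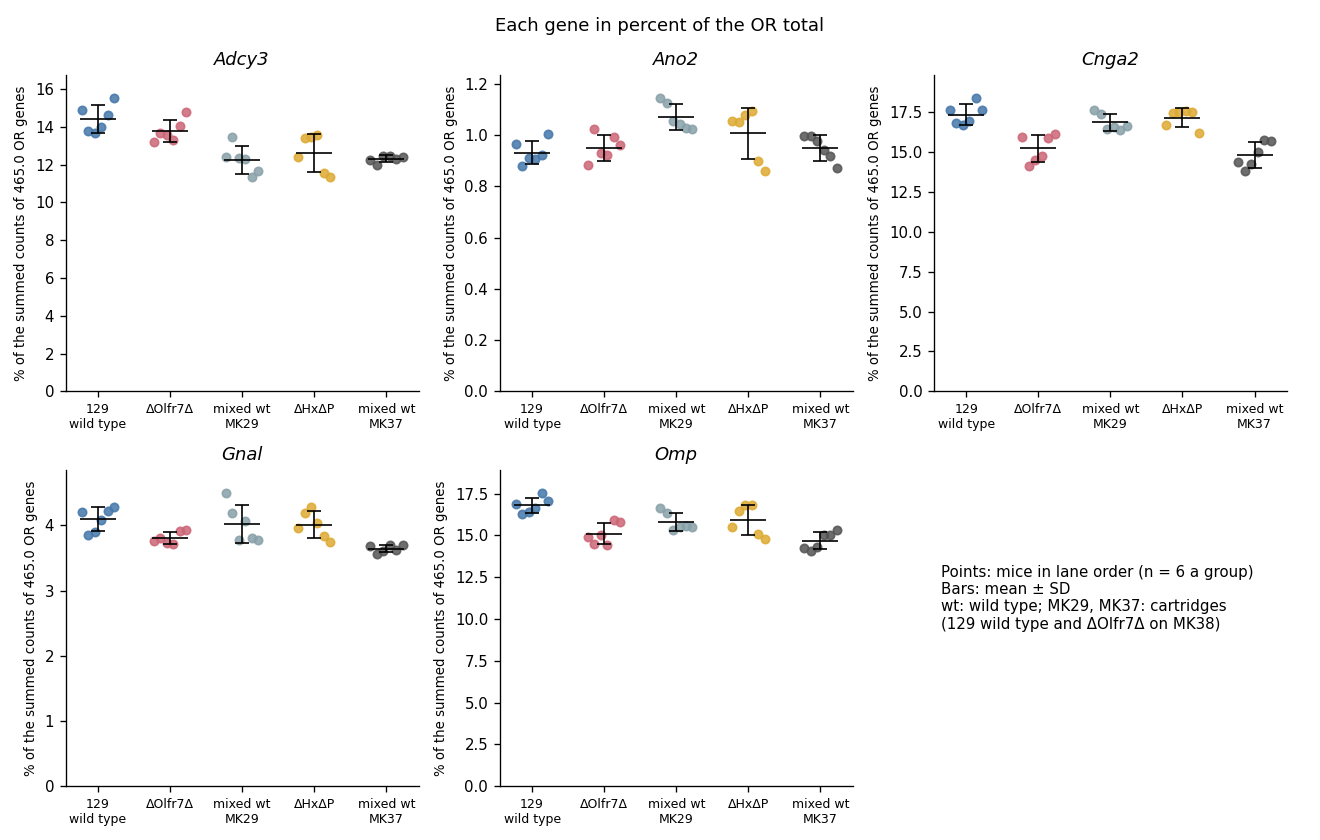
Each gene in percent of the summed counts of 465 OR genes, by mouse and group, with the mean and SD as bars. For Cnga2 the ΔOlfr7Δ mice, at 14.1% to 16.1%, lie below all 129SvEvTac mice, at 16.7% to 18.4%.

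In ΔHxΔP mice no member passed the test of levels against wild-type mice of the same cartridge. None of the 5 genes was called by limma, where 33.7% of 563 genes were, and none had an unadjusted p under 0.05, where 45.5% of genes did. The log2 differences were 0.13 for Adcy3 (95% interval -0.0016 to 0.27), 0.12 for Cnga2 (-0.021 to 0.25), 0.098 for Omp (-0.028 to 0.22), 0.091 for Gnal (-0.058 to 0.24) and -0.0022 for Ano2 (-0.16 to 0.16). The sign for Ano2 turned in 8 of 29 alternatives, and those of Gnal and Omp turned to -0.013 and -0.0055 under TMM. Replicate 1 of the MK29 wild-type mice was the highest of its group in all 5 genes, for example 32834 for Gnal where the other mice of the group reached 28335. Without it, Adcy3, Cnga2, Gnal and Omp were all called higher, with log2 differences from 0.15 (adjusted p = 0.0313, Omp) to 0.17 (adjusted p = 0.0337, Adcy3) with limma. The mutants again were in lanes 7 to 12, so genotype and place on the cartridge cannot be told apart here either.

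In ratios within a lane, Ano2 was the member that passed. Over the other 4 genes it ran from 0.0978 over 0.100 to 0.101 in the MK29 wild-type mice and from 0.0855 over 0.0938 to 0.0993 in the ΔHxΔP mice. Of the mutants 5 lay below every wild-type mouse, and the ratio was 0.925-fold (adjusted p = 0.0260, exact permutation test). The SD of this ratio was 0.0013 in the wild-type mice and 0.0056 in the mutants. The lowest mutant values, 0.0865 and 0.0855, came from the last lanes of the cartridge, 11 and 12, which also had the highest ratios of Cnga2 over the other 4 genes, 3.53 and 3.35. When both lanes were left out, a choice made after the values were seen, the log2 difference of Ano2 over the other 4 was -0.059 (adjusted p = 0.0357, exact permutation test) in place of -0.11. The part of lane position in this ratio was not tested. The other 4 genes did not pass this test, with ratios from 1.00-fold for Gnal to 1.04-fold for Adcy3. Of the 10 pairs 3 passed, all with Ano2. Ano2 was lower over Omp (0.933-fold, adjusted p = 0.0255), over Cnga2 (0.921-fold, adjusted p = 0.0433) and under Adcy3 (Adcy3 over Ano2 1.10-fold, adjusted p = 0.0186), each by exact permutation test. The pair of Ano2 and Cnga2 no longer passed without any one of the 6 wild-type mice or of mutant replicates 5 and 6 (adjusted p up to 0.136), nor that of Ano2 and Omp without wild-type replicate 1, 2, 3 or 4 (adjusted p up to 0.0638), by the same exact permutation test.

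No member passed against the OR total in ΔHxΔP mice. Ano2 had a median of 1.05% of the OR total in both groups of MK29. Its ratio was 0.937-fold (adjusted p = 0.337, exact permutation test), and those of the other 4 genes lay between 1.00-fold and 1.03-fold (adjusted p from 0.569 to 0.996, exact permutation test). With the deleted or reduced clusters counted in the OR total, Cnga2 at a log2 difference of 0.12 (adjusted p = 0.0144) and Omp at 0.10 (adjusted p = 0.0469) passed the exact permutation test.

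Both wild-type groups of mixed background differed in Adcy3. It ran from 67543 over 82744 to 90341 in the MK29 wild-type mice and from 86071 over 92256 to 101034 in the MK37 wild-type mice, and the groups overlapped. The log2 difference was 0.22 (SE 0.065, adjusted p = 0.00959 with limma). It was the only member called, where 42.6% of 563 genes were called and 36.9% were called higher, and it was 0.023 (adjusted p = 0.805) under TMM. The log2 differences of the other members were 0.10 for Omp, 0.071 for Gnal, 0.038 for Ano2 and 0.020 for Cnga2 (adjusted p from 0.180 to 0.827), and all of these turned negative under TMM. Adcy3 over the other 4 genes ran from 1.99 over 2.11 to 2.23 on MK29 and from 2.32 over 2.34 to 2.41 on MK37. These ranges did not overlap, and the ratio was 1.12-fold higher (adjusted p = 0.0108, exact permutation test). Cnga2 over Omp, the closest pair, was 0.946-fold on MK37 without overlap (adjusted p = 0.00866, exact permutation test).

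Relative to the receptors, the other 4 genes differed between these groups. Adcy3 held the same share of the OR total, with medians of 12.3% on both cartridges (1.01-fold, adjusted p = 0.907, exact permutation test). Those 4 were lower on MK37 with no overlap between groups, Cnga2 at 0.878-fold, Ano2 at 0.888-fold, Gnal at 0.909-fold and Omp at 0.928-fold (each adjusted p = 0.00541, exact permutation test). In the MK37 wild-type mice, Ano2 over the other 4 genes was 0.102, 0.104 and 0.0999 in lanes 1 to 3 and 0.0934, 0.0905 and 0.0850 in lanes 4 to 6. The part of lane position in these values was not tested. Colony and cartridge cannot be told apart, because each colony ran on its own cartridge. The ΔHxΔP comparison and this one share the MK29 wild-type mice.

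Between backgrounds, Ano2 was lower in 129SvEvTac mice than in the 12 wild-type mice of mixed background (not called in raw counts). The 129SvEvTac mice ran from 5209 to 6524 scaled counts of Ano2, the MK29 mice from 6122 over 6992 to 8345 and the MK37 mice from 6319 over 7321 to 7857. The log2 difference was -0.28 (SE 0.072, adjusted p = 0.00115 with limma), and the ranges overlapped. Of the 5 genes it was the only one called, where 70.8% of 554 genes were called and 42.6% were called lower. The other 4 had log2 differences of 0.068 for Adcy3, -0.020 for Omp, -0.026 for Cnga2 and -0.064 for Gnal, with adjusted p from 0.367 to 0.792 in limma. Adcy3 passed as higher in 129SvEvTac mice under TMM (0.13, adjusted p = 0.00272) and in raw counts (0.23, adjusted p = 0.0173), where Ano2 did not pass (-0.11, adjusted p = 0.322). Against the MK37 mice alone the value of Adcy3 was -0.040.

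**Figure D4:**
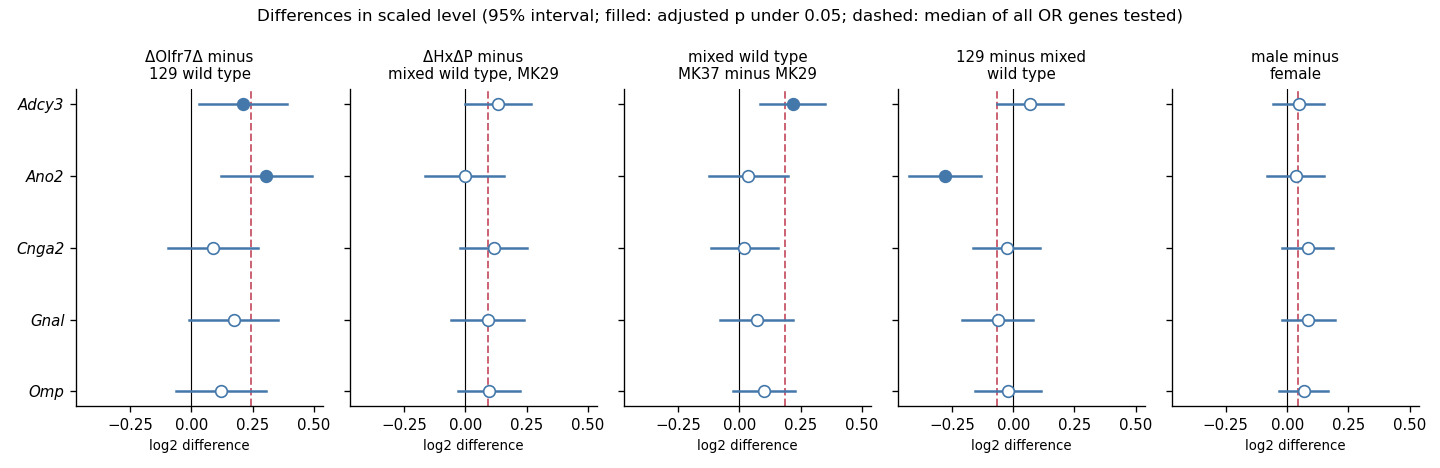
Log2 differences in scaled level of the 5 genes in 5 comparisons, with 95% intervals. Filled points passed an adjusted p of 0.05 in limma and the dashed line is the median of the OR genes tested. Filled points are Ano2 (0.31, 0.035 under TMM) and Adcy3 (0.21, -0.060 under TMM) in ΔOlfr7Δ mice, Adcy3 (0.22, 0.023 under TMM) between the mixed wild-type groups and Ano2 (-0.28, -0.22 under TMM) between backgrounds.

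The ratio of Adcy3 to Ano2 was higher in 129SvEvTac mice than in both mixed wild-type groups. It ran from 15.05 over 15.4 to 15.9 in the 129SvEvTac mice, from 10.8 over 11.5 to 11.97 in the MK29 wild-type mice and from 12.03 over 13.0 to 14.2 in the MK37 wild-type mice. All 6 of the 129SvEvTac mice lay above all 12 mixed mice, and the ratio was 1.27-fold higher (adjusted p = 0.00108, exact permutation test). The mixed groups did not overlap each other either, with the ratio 1.13-fold higher on MK37 than on MK29 (adjusted p = 0.00866, exact permutation test). Over the other 4 genes, Ano2 was 0.831-fold (adjusted p = 0.00108) and Adcy3 1.12-fold (adjusted p = 0.0108) the value in mixed mice, both without overlap, and Omp was 1.04-fold (adjusted p = 0.0279), by exact permutation test. The call of Omp was lost without 129SvEvTac replicate 2, 3, 4 or 5. Gnal over the other 4 stood at 1.00-fold (adjusted p = 0.987) and Cnga2 at 1.03-fold (adjusted p = 0.275, exact permutation test). The smallest unadjusted p that 18564 divisions of these mice allow is 5.39e-05. The ΔOlfr7Δ mice, which share this background and cartridge, had ratios of Adcy3 to Ano2 from 13.4 over 14.5 to 15.4, lower than the 129SvEvTac mice (0.936-fold, adjusted p = 0.0186, exact permutation test). The values of ΔOlfr7Δ replicates 2 and 5, 13.4 and 14.2, lay within the MK37 range. Both comparisons use the same 129SvEvTac mice. Background and cartridge cannot be told apart, because all 129SvEvTac mice ran on MK38 and all mixed mice on the other cartridges.

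**Figure D5:**
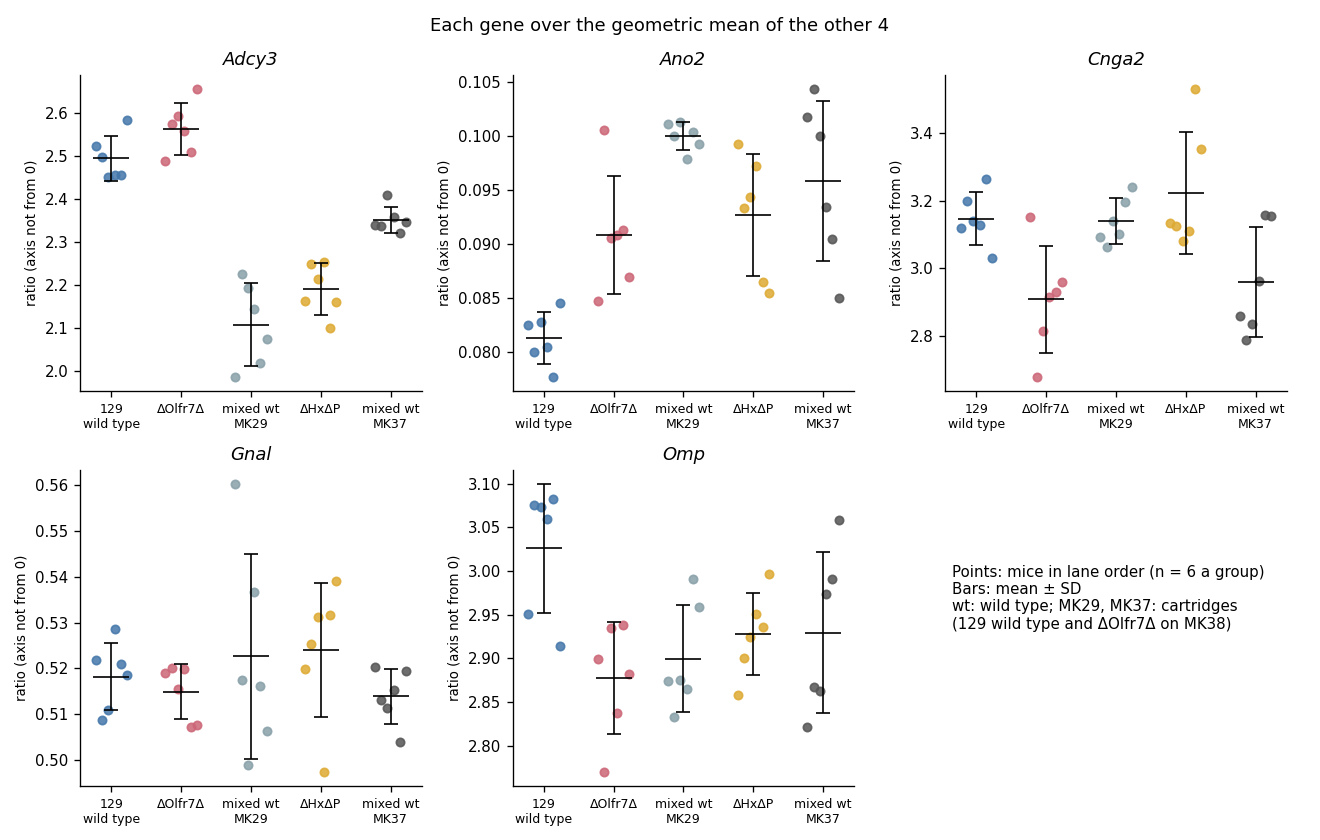
Each gene over the geometric mean of the other 4 genes in the same lane, by mouse and group, with the mean and SD as bars and axes that do not start at 0. Ano2 is lowest and Adcy3 highest among wild-type groups in the 129SvEvTac mice, while the groups of Gnal overlap around 0.52.

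Against the OR total, 3 members were higher in 129SvEvTac mice. Adcy3 made up 13.7%, 14.3% and 15.5% of the OR total (lowest, median and highest) in these mice. In the MK29 wild-type mice it made up 11.3%, 12.3% and 13.5% and in the MK37 wild-type mice 11.96%, 12.3% and 12.5%. All 129SvEvTac values were above all mixed values, with a ratio of 1.17-fold (adjusted p = 0.00108, exact permutation test). Omp was 1.10-fold (adjusted p = 0.00541) and Cnga2 1.10-fold (adjusted p = 0.0306, exact permutation test) the value in the 12 mixed mice, which differed between cartridges as given above. Cnga2 made up 16.7% to 18.4% of the OR total in the 129SvEvTac mice, 16.4% to 17.6% in the MK29 wild-type mice and 13.8% to 15.7% in the MK37 wild-type mice, so the 129SvEvTac range overlapped that of MK29 and lay above that of MK37. Omp made up 16.3% to 17.5%, 15.3% to 16.6% and 14.1% to 15.3% in the same order, with the same overlap. Differences from each mixed group alone were not tested for these ratios. Neither passed when the median OR gene took the place of the sum (adjusted p = 0.608 and 0.756), and that of Cnga2 was also lost without 129SvEvTac replicate 1, 5 or 6. Gnal at 1.07-fold (adjusted p = 0.0783) and Ano2 at 0.923-fold (adjusted p = 0.0701) did not pass the exact permutation test with this sum. Gnal passed with the clusters counted in the sum (1.10-fold, adjusted p = 0.0184), and Ano2 passed with the median OR gene (log2 difference -0.22, adjusted p = 0.00618), by the same exact permutation test.

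Gnal differed little between groups in its ratio to the geometric mean of the other 4 genes. Its mean ratio to the other 4 was 0.518 ± 0.0074 (SD, n = 6) in the 129SvEvTac mice, 0.515 ± 0.0060 in ΔOlfr7Δ mice, 0.523 ± 0.022 in the MK29 wild-type mice, 0.524 ± 0.015 in ΔHxΔP mice and 0.514 ± 0.0060 in the MK37 wild-type mice. It was the only member that passed none of the 4 comparisons of this ratio, in which 8 of 20 tests passed. Ano2 passed 3 of them, Adcy3 and Omp 2 each and Cnga2 1. Pairs with Gnal did pass between backgrounds. Ano2 over Gnal was 0.862-fold (adjusted p = 0.00108) and Adcy3 over Gnal 1.10-fold (adjusted p = 0.0158), by exact permutation test. Cnga2 over Gnal and Gnal over Omp did not pass there.

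No member passed the test between the sexes, Cnga2 on the X chromosome included. With the group held constant, none of the 5 genes was called between 16 males and 14 females, where 0% of 554 genes were called by limma and 28 (5.05%) had an unadjusted p under 0.05, none of them a member. The log2 difference, male minus female, was 0.084 for Cnga2 (95% interval -0.020 to 0.19, adjusted p = 0.918) and 0.087 for Gnal (-0.019 to 0.19). It was 0.068 for Omp, 0.048 for Adcy3 and 0.034 for Ano2, and it turned negative in raw counts for these 3 and for Cnga2, and for Adcy3 and Ano2 under TMM.

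For each member the pair of OR genes with the highest correlation of deviations from the group means was taken over 30 mice, among 549 OR genes. Olfr986 came first for Adcy3 (r = 0.94), Omp (r = 0.92) and Gnal (r = 0.91). Olfr455 came first for Ano2 (r = 0.92) and was next for Adcy3 (r = 0.89). Olfr1414 came first for Cnga2 (r = 0.88), followed by Olfr1 (r = 0.86). The remaining picks were Olfr735 for Ano2 (r = 0.89), Olfr109 for Gnal (r = 0.87) and Olfr1262 for Omp (r = 0.91). The median correlation over the OR genes was between 0.43 for Ano2 and 0.52 for Omp. Median scaled counts of Olfr986 were 3309 in the 129SvEvTac mice, 3880 in ΔOlfr7Δ mice, 2925 in the MK29 wild-type mice, 3073 in ΔHxΔP mice and 3175 in the MK37 wild-type mice. Lanes share scale and input, and the picks were the highest of many, so no test was made.

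The promoters of the members were searched for motifs known from genes of olfactory neurons. The motifs were CCCNNGGG, the core of the site of the Olf-1/EBF factors, and TAATTA, the core of the site of LIM homeodomain factors, which do not overlap and are each their own reverse complement, so a search of one strand covers both. Gnal was left out of the search beforehand. RefSeq promoter windows (GRCm38.p6, from 250 bases before to 50 bases after a start site) matched 3 of the members. CCCNNGGG was in the window of Cnga2, 66 bases before the start site, and in 1 of 3 windows of Ano2, 67 bases before it. Neither of the 2 windows of Adcy3 held it. TAATTA was in none of these windows. Of all 32851 windows 13.7% held CCCNNGGG and 5.29% TAATTA, and of 948 OR gene windows 3.06% and 18.6%. A match shows only that these letters are present. Both matches are shown on the plus strand with the motif in capitals, Cnga2 from chrX:71991723-71991848 and Ano2 from chr6:125711061-125711187.
Cnga2: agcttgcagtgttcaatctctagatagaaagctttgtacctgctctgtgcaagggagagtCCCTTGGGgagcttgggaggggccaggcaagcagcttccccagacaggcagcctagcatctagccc
Ano2: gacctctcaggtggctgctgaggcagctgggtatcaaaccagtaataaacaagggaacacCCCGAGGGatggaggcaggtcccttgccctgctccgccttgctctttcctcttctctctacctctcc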

How the data were processed

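The authors deposited raw counts per probe and lane, with no scaling and no background subtraction, per the labels and the file headers. The counts, recorded as another unit because of the table's layout, were each multiplied by the mean over lanes of the geometric mean of the 6 positive controls divided by that of the lane. Log2 of the scaled count plus a pseudocount of 1 was tested with limma 3.58.1 in R 4.3.3 (linear model, empirical Bayes with a trend). The test ran over the 5 members and all OR genes whose median in wild-type mice was at least 100 (no gene fell below), with Benjamini-Hochberg adjustment over all of them at 0.05. The ΔHxΔP fit held 18 mice with a cartridge term. Ratios were tested on the log2 scale by exact two-sided permutation over mice, ΔHxΔP against MK29 mice only. P-values were adjusted over 40 tests for pairs and over 20 each for ratios to the other 4 and to the OR total. A fold of a ratio is that between geometric means of the groups.

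Cluster membership was taken from the study's table of OR genes. The named genes were the 5 members and, for each, the 2 OR genes with the highest correlation. The members and lists were chosen with earlier results of these data known. Lists of 15 other transduction genes and of 20 markers of other cell types were not analysed here. Of these genes, 0 had a row in the count table. Counts of Cnga4, Gnas and Gap43, all on these lists, appear for this probe set in the study's supplement. Lanes were compared pairwise in raw counts and all differed by more than sampling noise (554 genes). Differences in total counts between lanes enter this measure. Alternatives covered the scaling, background, filter, trend, sex, samples and each mouse left out. The fits were tested on simulated data. Figures used matplotlib 3.10.9 in Python 3.11.15.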

Additional observations from a re-analysis of the deposited data

Results flagged for a closer look

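Of 75 groups of 6 mice examined for a value far from the others (5 genes, as scaled counts, over the other 4 genes and in percent of the OR total), 2 held one, where chance gives about 1 in 20. The scaled count of Cnga2 was 132570 in replicate 5 of the ΔHxΔP mice, in lane 11, and from 114671 to 120748 in the other 5. The scaled count of Gnal was 23606 in replicate 4 of the ΔOlfr7Δ mice, in lane 10, and from 29499 to 32132 in the other 5.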

How the results depend on the processing

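In ΔOlfr7Δ mice the 2 genes called became 4 (Adcy3, Ano2, Gnal, Omp) with no scaling, 1 (Ano2) with the background subtracted, with no mean-variance trend or with sex as a covariate, and 0 with tTREAT at a fold of 1.3. TMM also called 2, but these were Cnga2 (-0.18) and Omp (-0.15), lower, with Adcy3 at -0.060 and Gnal at -0.10. Leaving out 1 mouse gave 1 to 4 calls, 4 without ΔOlfr7Δ replicate 4. In ΔHxΔP mice the count of 0 became 2 (Adcy3, Cnga2) with no scaling, and leaving out 1 mouse gave 0 to 4, 4 without MK29 wild-type replicate 1. Between the mixed wild-type groups the single call, Adcy3, became 0 with no scaling and gave way to Cnga2 (-0.17) under TMM, with Ano2 at -0.16, Gnal at -0.12 and Omp at -0.094. Leaving out 1 mouse there gave 1 to 2 calls, 2 (Adcy3, Omp) without MK29 wild-type replicate 1. Between backgrounds TMM called 2 (Adcy3, Ano2), and no scaling called Adcy3 in place of Ano2. The causes were not tested. The median log2 difference of all genes, 0.24 in ΔOlfr7Δ mice, 0.091 in ΔHxΔP mice, 0.18 between the mixed wild-type groups and -0.062 between backgrounds, was 0.34, 0.22, 0.20 and 0.10 with no scaling and -0.030, -0.013, -0.0097 and -0.0031 under TMM, so levels are relative to the scale chosen.

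Other values changed sign, none of them called either way. Ano2 in ΔHxΔP mice was 0.12 with no scaling, 0.022 without the lowest positive control and 0.0038 with sex as a covariate, and -0.040 to 0.049 when 1 mouse was left out. Under TMM, Gnal (-0.013) and Omp (-0.0055) turned there. Between the mixed wild-type groups, leaving out 1 mouse gave -8.9e-05 to 0.089 for Ano2 and -0.022 to 0.066 for Cnga2. Between backgrounds, Cnga2, Gnal and Omp were 0.14, 0.10 and 0.15 with no scaling, and Cnga2 and Omp were 0.033 and 0.039 under TMM and -0.065 to 0.0055 and -0.055 to 0.015 when 1 mouse was left out. Against a single mixed group, an alternative chosen after seeing the data, Omp was 0.030 (MK29) and Adcy3 -0.040 (MK37). Between the sexes, no scaling gave -0.038 for Adcy3, -0.051 for Ano2, -0.0018 for Cnga2 and -0.018 for Omp, and TMM -0.00020 for Adcy3 and -0.014 for Ano2.

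Among ratios to the OR total in ΔHxΔP mice, counting the clusters turned Ano2 (0.0015) and Gnal (0.095), and the median OR gene turned Adcy3 (-0.0019), Cnga2 (-0.018) and Omp (-0.036). It also turned Gnal between backgrounds (-0.011). Leaving out 1 mouse gave -0.020 to 0.033 for Gnal and -0.0092 to 0.028 for Omp in ΔHxΔP mice, and -0.013 to 0.037 for Adcy3 between the mixed wild-type groups. Over the other 4 genes, Gnal ran from -0.0086 to 0.025 in ΔHxΔP mice and from -0.0054 to 0.011 between backgrounds. Without lanes 11 and 12, chosen after seeing the data, Cnga2 and Gnal over the other 4 were -0.012 and -0.011 in ΔHxΔP mice. When 1 mouse was left out, 18 to 23 pair ratios, 9 to 11 ratios to the OR total and 6 to 9 ratios to the other 4 passed, against 20, 10 and 8.

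No paired analysis was possible because the labels number lanes, and the lane numbers of mutants and wild-type mice do not overlap. A count model was not run, since the table was not recorded as plain counts. With 6 mice a group, the number of mice and the counting error of the positive controls limit the precision of levels. Counts were far above background (from 109.5-fold for Ano2 in its lowest lane).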
